A study of Mus musculus with 228 samples.

Results

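Inguinal white fat, the subcutaneous fat pad of the groin, was compared between mice kept in constant darkness and mice kept in constant light. The members were chosen by their labels: 3 libraries from chow-fed mice at 0 h of light and 24 h of dark (LD0/24) and 3 libraries from chow-fed mice at 24 h of light and 0 h of dark (LD24/0), of 15 inguinal fat libraries and 228 libraries in all. Both groups were C57BL/6N mice, an inbred laboratory strain, 10 weeks old, housed singly, given 7 days to settle and then held under their light cycle for 42 days. The other 9 inguinal fat libraries, 3 each at LD8/16, LD12/12 and LD16/8, served to estimate the spread between libraries of a group. The labels name 24 mice per diet and cycle. Nothing states that the libraries of a group came from separate mice, and p-values therefore speak only of the spread among these libraries.

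White adipocytes store triglyceride and release fatty acids between meals, and the inguinal pad of mice can also form beige adipocytes that burn fuel for heat through the uncoupling protein Ucp1. The daily clock is a feedback loop in which BMAL1 (encoded by Arntl) and CLOCK switch on the Per, Cry, Nr1d and Dbp genes, whose products hold it in check or pass its rhythm on. Light sets the brain clock through the eye, and fat follows through hormones, nerves and feeding. In female mice the mammary ducts run through the inguinal pad, and muscles of the thigh and abdominal wall lie beneath it, so milk and muscle transcripts are given as signs of how a pad was dissected. The sex of the mice is not given in the sources used here.

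All 6 libraries held abundant adipocyte RNA. Levels of a gene are in CPM, its counts scaled by depth to the TMM-normalised library, and summed marker levels are in nuclear CPM, scaled to the counts of nuclear genes alone. The summed level of 10 adipocyte markers was 54777 to 62982 nuclear CPM in LD0/24 libraries and 56420 to 68521 nuclear CPM in LD24/0 libraries. Library totals separated the groups: they were (in M, the SI prefix mega) 69.01, 63.5 and 71.7 M counts in LD0/24 replicates 1 to 3, against 107, 105 and 112.5 M counts in LD24/0 replicates 1 to 3. A count of at least 1 was seen for 18877 to 20359 genes in LD0/24 libraries and for 20610 to 22341 genes in LD24/0 libraries. Depth and light cycle cannot be told apart in this comparison (exact two-sided permutation test on totals p = 0.1, the smallest p that 3 against 3 can give). A fit with the log2 of the library total as a covariate is called total counts as a covariate below. Its covariate separates the groups, so its counts and signs cannot tell depth from light cycle.

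RNA encoded by the mitochondrial genome took 12.7, 29.2 and 24.8% of counts in LD0/24 replicates 1 to 3, against 17.2, 19.1 and 7.90% of counts in LD24/0 replicates 1 to 3. The groups overlapped, with LD0/24 replicate 2 highest and LD24/0 replicate 3 lowest. The means were 22.2% ± 8.55 at LD0/24 and 14.7% ± 5.985 at LD24/0 (SD, n = 3 each), a difference of 7.49 percentage points (exact two-sided permutation test p = 0.3). It was 12.26 without LD0/24 replicate 1, 4.01 without LD0/24 replicate 2 and 4.08 without LD24/0 replicate 3.

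Skeletal muscle RNA marked 1 library above all. The 25 muscle genes summed to 144.5, 143 and 108 nuclear CPM in LD0/24 replicates 1 to 3, against 140.4, 3418 and 150.5 nuclear CPM in LD24/0 replicates 1 to 3. In this sum LD24/0 replicate 2 stood apart and the other 5 libraries lay close together. Acta1, skeletal muscle actin, was at 23.2, 6.53 and 3.33 CPM in LD0/24 libraries, against 42.2, 386 and 16.1 CPM in LD24/0 libraries. Ckm, muscle creatine kinase, was at 2.245, 0 and 0.245 CPM in LD0/24 libraries, against 0.458, 353 and 9.35 CPM in LD24/0 libraries. Both genes were highest in LD24/0 replicate 2. Ckm was next highest in LD24/0 replicate 3, and Acta1 in LD24/0 replicate 1. The difference in the summed level was -1105 nuclear CPM (exact two-sided permutation test p = 0.3) and -13.6 nuclear CPM without LD24/0 replicate 2.

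Milk and mammary genes were low in all 6 libraries. The milk protein genes without Xdh, a xanthine dehydrogenase that adipocytes make too, summed to 153, 40.3 and 18.85 nuclear CPM in LD0/24 replicates 1 to 3, against 2.096, 23.5 and 2.40 nuclear CPM in LD24/0 replicates 1 to 3. LD0/24 replicate 1 was highest, and the groups overlapped (difference 61.51 nuclear CPM, exact two-sided permutation test p = 0.2). Csn2, beta casein, was at 23.8, 7.14 and 2.235 CPM in LD0/24 libraries, against 0.513, 4.22 and 0.561 CPM in LD24/0 libraries. Krt18, a keratin of duct epithelium, was at 3.17, 0.494 and 1.35 CPM in LD0/24 libraries, against 1.27, 2.18 and 1.95 CPM in LD24/0 libraries. Both overlapped between the groups. The 20 mammary and duct epithelium markers summed to 415, 206 and 301 nuclear CPM in LD0/24 replicates 1 to 3, against 316, 181 and 250.2 nuclear CPM in LD24/0 replicates 1 to 3 (exact two-sided permutation test p = 0.5), and of these markers Areg and Cldn4 were at 0 in all 6 libraries. The milk list with Xdh put back and the mammary list together differed by 55.62 nuclear CPM (exact two-sided permutation test p = 0.6). Without LD0/24 replicate 1 that difference was -45.4 nuclear CPM. With Xdh the milk list summed to 337.5, 259.3 and 132.8 nuclear CPM in LD0/24 replicates 1 to 3. In LD24/0 replicates 1 to 3 it summed to 147.7, 234.2 and 355.4 nuclear CPM. The part of Xdh in the change of sign was not tested.

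**Figure D1:**
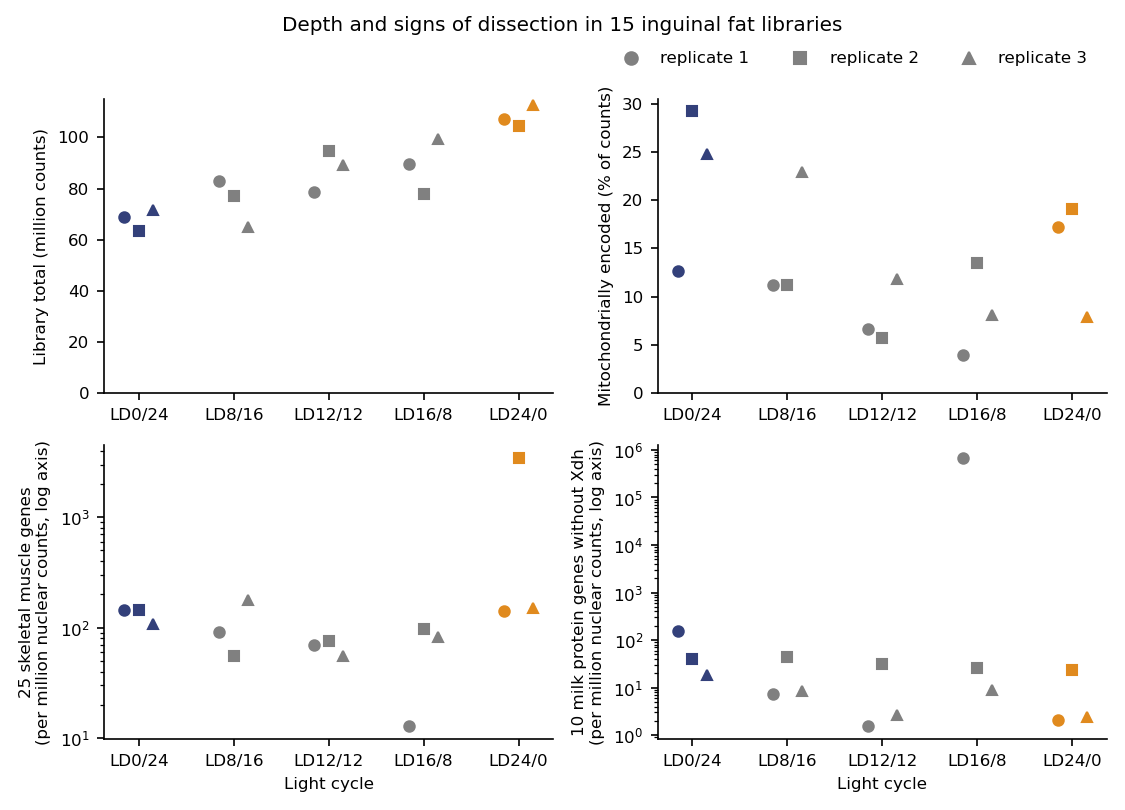
Library total, mitochondrially encoded share, and summed skeletal muscle and milk protein genes (nuclear CPM, log axes) for each of 15 inguinal fat libraries by light cycle, with LD0/24 in blue and LD24/0 in orange. The LD0/24 totals (63.5 to 71.7 M counts) lie below the LD24/0 totals (104.6 to 112.5 M counts), LD24/0 replicate 2 is high in muscle genes, and LD16/8 replicate 1, outside the comparison, is high in milk genes.

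No gene passed the test between LD0/24 and LD24/0. Of 20927 genes tested with edgeR's quasi-likelihood test, 0 had a Benjamini-Hochberg adjusted p under 0.05 (0% of genes higher and 0% lower), and the smallest adjusted p was 0.2701. At an unadjusted p under 0.05, 981 genes were higher at LD0/24 (4.69% of genes tested) and 1312 were lower (6.27%). In 1637 genes every LD0/24 library lay above every LD24/0 library (7.82%), and in 2139 genes every one lay below (10.2%). DESeq2, another count model, called 197 genes (73 higher and 124 lower at LD0/24), limma-voom called 0, and the median log2 fold change over all genes was 0.01. The gene groups are therefore described by values and by counts at an unadjusted p under 0.05, with no call. Fold changes are log2 of LD0/24 over LD24/0 with the SE, and adjusted p-values are edgeR's unless DESeq2 is named.

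Interferon response genes made up the list with the most members higher at LD0/24 at an unadjusted p under 0.05. These genes answer virus-like RNA or DNA and type I interferon by way of factors that include STAT2 and IRF9. Of 22 tested, 12 were higher at an unadjusted p under 0.05 and 0 lower, beside 4.69% and 6.27% of all genes. The list's median log2 fold change was 0.73, beside 0.01 over all genes. The 12 were Mx1, Mx2, Ifit1, Oas2, Usp18, Ifit3, Zbp1, Isg15, Bst2, Irf7, Stat2 and Oasl2, and in 9 of them the groups did not overlap, beside 7.82% of all genes. In 3 further members the groups separated the other way, with every LD0/24 library below every LD24/0 library, beside 10.2% of all genes. The smallest adjusted p in the list was 0.2701, and DESeq2 called Mx1, Mx2, Oas2 and Ifit3.

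Type I interferon acts through a DNA element whose core is searched here as GAAA, any 2 bases and GAAA again, so the promoters of 3 of these genes are printed to show where that pattern lies. The 250 bases before the RefSeq start (build GRCm38.p6, read 5′ to 3′ along the gene) were searched on both strands, with overlapping matches allowed, and capitals mark the matches. Ifit1 is shown from chr19:34640639-34640888 (plus strand), Ifit3 from chr19:34583279-34583528 (plus strand) and Isg15 from chr4:156200819-156201068 (minus strand).
Ifit1: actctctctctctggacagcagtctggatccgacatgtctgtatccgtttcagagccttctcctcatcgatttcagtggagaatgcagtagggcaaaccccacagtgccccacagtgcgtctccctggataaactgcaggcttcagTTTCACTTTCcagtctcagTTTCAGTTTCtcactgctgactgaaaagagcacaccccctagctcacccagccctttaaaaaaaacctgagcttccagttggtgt
Ifit3: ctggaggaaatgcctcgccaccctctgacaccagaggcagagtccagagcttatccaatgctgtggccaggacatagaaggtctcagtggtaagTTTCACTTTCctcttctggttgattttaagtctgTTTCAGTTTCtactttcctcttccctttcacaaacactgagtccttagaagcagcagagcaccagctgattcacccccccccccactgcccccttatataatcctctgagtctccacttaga
Isg15: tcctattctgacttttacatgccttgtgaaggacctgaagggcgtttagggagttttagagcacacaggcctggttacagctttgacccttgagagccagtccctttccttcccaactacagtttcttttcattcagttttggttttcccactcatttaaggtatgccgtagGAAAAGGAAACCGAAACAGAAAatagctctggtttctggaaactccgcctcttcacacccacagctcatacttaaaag
Ifit1 held 2 matches, 104 and 85 bases before its start, and Ifit3 held 2, at 156 and 122 bases. Isg15 held 3 that overlap, at 78, 72 and 66 bases. A match lay in 978 of 32851 promoters of that length (2.98%). Of the 12 genes, 7 had a promoter in the table, and 5 of these held a match (Ifit1, Ifit3, Isg15, Stat2 and Bst2), while Irf7 and Oasl2 held none in this window. Of the list's other members, 8 had a promoter in the table and 4 held a match. A match describes the letters only, and binding was not measured here.

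Ifit1, which encodes a protein that binds foreign RNA, was at 24.4, 24.3 and 166.5 CPM in LD0/24 libraries, against 14.6, 14.5 and 7.31 CPM in LD24/0 libraries (2.56 ± 0.61, adjusted p = 0.3604). Ifit3, of the same family, was at 44.7, 57.95 and 211 CPM in LD0/24 libraries, against 41.6, 30.7 and 21.7 CPM in LD24/0 libraries (1.74 ± 0.51). In both genes the groups did not overlap and LD0/24 replicate 3 was far above the rest. Isg15, a ubiquitin-like protein that is attached to other proteins, was at 19.7, 19.65 and 85.8 CPM in LD0/24 libraries, against 14.35, 20.4 and 6.26 CPM in LD24/0 libraries (1.61 ± 0.56). Here the groups overlapped. Mx1, a gene of a GTPase family, was at 2.41, 3.95 and 11.03 CPM in LD0/24 libraries, against 0.870, 0.922 and 0.388 CPM in LD24/0 libraries (2.99 ± 0.60, adjusted p = 0.2701 with edgeR and 0.0002845 with DESeq2). Oas2, an RNA-sensing oligoadenylate synthetase, was at 21, 33.75 and 29.35 CPM in LD0/24 libraries, against 11.4, 9.87 and 6.03 CPM in LD24/0 libraries (1.63 ± 0.41, adjusted p = 0.3732 with edgeR and 0.02118 with DESeq2). All 3 darkness libraries were above all light libraries for Mx1 and Oas2.

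The regulators had smaller differences. Irf7, a factor that amplifies interferon production, was at 42.7, 43.99 and 92.2 CPM in LD0/24 libraries, against 39.8, 35.2 and 19.7 CPM in LD24/0 libraries (0.92 ± 0.34). Stat2, a subunit of the factor that reads the interferon signal, was at 30.3, 39.7 and 54.5 CPM in LD0/24 libraries, against 27.5, 25.3 and 26.6 CPM in LD24/0 libraries (0.65 ± 0.27). Neither overlapped between the groups. Usp18, which removes Isg15 and dampens the receptor, was at 13.1, 8.88 and 27.05 CPM in LD0/24 libraries, against 6.86, 8.41 and 5.895 CPM in LD24/0 libraries (1.21 ± 0.35). LD0/24 replicate 3 was the highest of the 6 libraries for 11 of the 12 genes, and LD24/0 replicate 3 the lowest for 9. Without LD0/24 replicate 3 the count was 4 in place of 12, and with total counts as a covariate it was 5, with the list's median then at 1.06.

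Summed macrophage and T cell markers overlapped between the groups. The 15 macrophage genes summed to 607.9 to 1022 nuclear CPM in LD0/24 libraries and 385.4 to 769 nuclear CPM in LD24/0 libraries. The 12 T cell genes summed to 16.31 to 31.5 nuclear CPM in LD0/24 libraries and 12.37 to 25.09 nuclear CPM in LD24/0 libraries. None of these markers was at 0 in all 6 libraries. Every LD0/24 library lay above every LD24/0 library in 0 of 15 macrophage and 1 of 12 T cell genes, beside 7.82% of all genes. The same held for 2 of 14 B cell and lymph node, 1 of 8 neutrophil, 0 of 10 plasma cell and 0 of 8 mast cell genes. The reverse held for 0 genes of each list, beside 10.2%. C1qa, a complement subunit made by tissue macrophages, was at 70.4, 116 and 217 CPM in LD0/24 libraries, against 44.5, 79.55 and 74.02 CPM in LD24/0 libraries (1.02 ± 0.40). It was the 1 of 15 macrophage genes higher at an unadjusted p under 0.05, with 0 lower, beside 4.69% and 6.27% of all genes. In bulk tissue, fewer cells of a type and less RNA per cell cannot be told apart, and the part of immune cells in the interferon values was not tested.

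**Figure D2:**
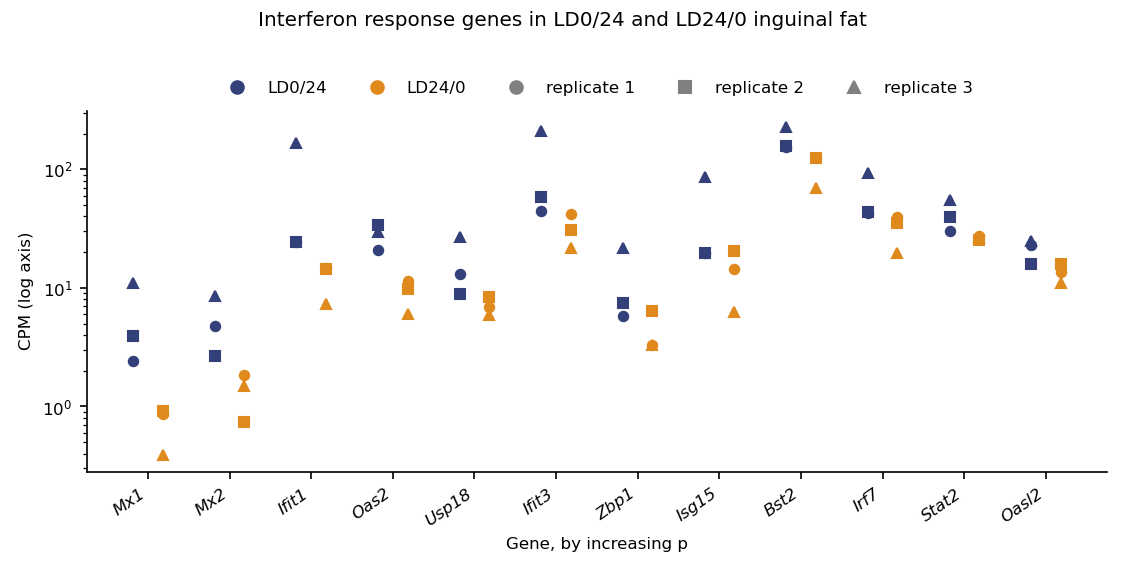
Levels of the 12 interferon response genes with an unadjusted p under 0.05 (CPM, log axis) in each LD0/24 (blue) and LD24/0 (orange) library, with symbols for replicate number. LD0/24 replicate 3 is the highest of the 6 libraries for 11 of the 12 genes.

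Nuclear genes of the respiratory chain were lower in part. The chain passes electrons through complexes I to IV, and ATP synthase makes ATP from the resulting proton gradient, with subunits from both the nuclear and the mitochondrial genome. Of 36 nuclear genes tested, 9 were lower at LD0/24 at an unadjusted p under 0.05 and 1 was higher, beside 6.27% and 4.69% of all genes, while the list's median log2 fold change was -0.01. The 9 were Ndufv1 and Ndufs1 of complex I, Sdha and Sdhd of complex II, Uqcrfs1, Uqcrc1 and Cyc1 of complex III, and Atp5a1 and Atp5b of ATP synthase. In all 9 the groups did not overlap, beside 10.2% of all genes, and the LD12/12 mean lay between the LD0/24 and LD24/0 means. The LD12/12 library totals, 78.78 to 94.87 M counts, also lay between those of LD0/24 and LD24/0. That order of means held for 8 of 12 interferon genes, 8 of 8 ribosomal protein genes counted below and 0 of 13 mitochondrially encoded proteins.

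Atp5b, the catalytic beta subunit of ATP synthase, was at 984.5, 751 and 883 CPM in LD0/24 libraries, against 1479, 1755 and 2145 CPM in LD24/0 libraries (-1.04 ± 0.33, adjusted p = 0.3732). Sdha, the flavoprotein of succinate dehydrogenase, was at 430, 308 and 354 CPM in LD0/24 libraries, against 615, 612 and 920 CPM in LD24/0 libraries (-0.98 ± 0.32). Ndufv1, the subunit of complex I that takes electrons from NADH, was at 130.1, 103 and 132 CPM in LD0/24 libraries, against 186, 202 and 262 CPM in LD24/0 libraries (-0.83 ± 0.23). In these 3 genes every darkness library was below every light library, and LD24/0 replicate 3 was on top. Uqcrfs1, the iron-sulfur protein of complex III, was at 229, 158 and 214 CPM in LD0/24 libraries, against 341, 345 and 350.4 CPM in LD24/0 libraries (-0.79 ± 0.23, adjusted p = 0.3732 with edgeR and 0.04788 with DESeq2). Cox7c, a small subunit of complex IV, was the 1 gene higher, at 336, 377 and 891 CPM in LD0/24 libraries, against 326, 359 and 218 CPM in LD24/0 libraries (0.83 ± 0.35). LD0/24 replicate 3 was far above the others, and the groups overlapped. With total counts as a covariate the count of 9 was 0 and the sign turned for Atp5a1, Atp5b, Ndufs1, Sdha, Cyc1 and Uqcrc1. That covariate separates LD0/24 from LD24/0, so the fit cannot tell depth from light cycle. With all libraries thinned to the smallest total the count was 9.

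All 13 mitochondrially encoded proteins had a log2 fold change above 0 (median 0.72), but the median was -0.90 with total counts as a covariate. With the mitochondrial share as a covariate it was -0.13. These genes make up most of that share (28.6 of 29.2% of counts in LD0/24 replicate 2). That fit therefore removes their own difference and decides nothing on it. With no covariate, 0 of the 13 were higher or lower at an unadjusted p under 0.05. Without LD0/24 replicate 1, 4 were higher (median 1.09), and without LD24/0 replicate 3 the median was 0.38. COX2, a core subunit of complex IV, was at 7280, 20885 and 20564 CPM in LD0/24 libraries, against 9669, 11912 and 4717 CPM in LD24/0 libraries. The groups overlapped, since LD0/24 replicate 1 lay below LD24/0 replicates 1 and 2. Mitochondrial transfer RNAs, which are short and lie between the coding genes, were higher in part: of 22 tested, 8 were higher at an unadjusted p under 0.05 and 0 lower (beside 4.69% and 6.27% of all genes), with a median log2 fold change of 1.07. The groups did not overlap in 7 of these 8 and in 1 other, beside 7.82% of all genes.

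TrnG, the glycine transfer RNA, was at 15.7, 26.8 and 49.3 CPM in LD0/24 libraries, against 6.375, 6.515 and 6.00 CPM in LD24/0 libraries (2.28 ± 0.49, adjusted p = 0.2701 with edgeR and 0.00168 with DESeq2). TrnH, the histidine one, was at 11.9, 16.7 and 27.3 CPM in LD0/24 libraries, against 4.24, 5.51 and 4.57 CPM in LD24/0 libraries (1.96 ± 0.42). The LD24/0 libraries were close to each other in both, although their mitochondrial shares were 17.2%, 19.1% and 7.9%. Rn7s1, a nuclear 7SL RNA of the signal recognition particle and also short, was at 4.09, 5.52 and 15.3 CPM in LD0/24 libraries, against 0.421, 0.981 and 0.250 CPM in LD24/0 libraries (3.91 ± 0.84, adjusted p = 0.2701 with edgeR and 0.0002845 with DESeq2). Rn7s2, a near-identical copy whose reads cannot be separated with certainty from those of Rn7s1, had a log2 fold change of 3.79 ± 0.81. In these 4 RNAs every darkness library was above every light library. Rn7s1 and Rn7s2 were chosen after their values were seen.

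Genes of fat storage gave a count near that of all genes. Of 17 fat storage and lipid droplet genes, 0 were higher and 1 lower at an unadjusted p under 0.05, beside 4.69% and 6.27% of all genes. The median log2 fold change was -0.28, and -0.02 with total counts as a covariate. That 1 was Fitm2, which helps lipid droplets bud, at 24.8, 33.9 and 27.8 CPM in LD0/24 libraries, against 49.1, 39.9 and 74.3 CPM in LD24/0 libraries (-0.92 ± 0.43, or 0.74 with total counts as a covariate). Plin1, the droplet coat protein that gates lipolysis, was at 239.5, 439.6 and 250.2 CPM in LD0/24 libraries, against 685, 662 and 551 CPM in LD24/0 libraries (unadjusted p = 0.1018). Cd36, a fatty acid uptake receptor, was at 1300, 1872 and 1263 CPM in LD0/24 libraries, against 2649, 2559 and 2456 CPM in LD24/0 libraries (unadjusted p = 0.05535). In all 3 genes every darkness library was below every light library. This held for 4 of the 17 genes, beside 10.2% of all genes, and the reverse for 0, beside 7.82%.

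Of 14 genes of lipolysis and its control, 1 was lower at an unadjusted p under 0.05 and 0 higher, beside 6.27% and 4.69% of all genes. It was Irs1, an adaptor of the insulin receptor, at 53.1, 69.8 and 61.7 CPM in LD0/24 libraries, against 130.4, 82.5 and 101 CPM in LD24/0 libraries (-0.76 ± 0.24, or 0.09 with total counts as a covariate), without overlap. Pde3b, the phosphodiesterase by which insulin restrains lipolysis, was at 210, 196 and 123.1 CPM in LD0/24 libraries, against 389.7, 290.1 and 365 CPM in LD24/0 libraries (unadjusted p = 0.06865), also without overlap. Adrb3, the beta adrenergic receptor of adipocytes, was at 559, 479 and 544 CPM in LD0/24 libraries, against 439, 475 and 271 CPM in LD24/0 libraries (unadjusted p = 0.4186), with every darkness library just above the light libraries. Without overlap, 2 of the 14 genes lay lower and 1 higher, beside 10.2% and 7.82% of all genes.

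Genes of fatty acid synthesis ranged widely within each group. Of 20 fatty acid and triglyceride synthesis genes, 1 was lower and 0 higher at an unadjusted p under 0.05, beside 6.27% and 4.69% of all genes. It was Aacs, which feeds ketone bodies into lipid synthesis, at 197, 262 and 289.9 CPM in LD0/24 libraries, against 345, 475 and 677 CPM in LD24/0 libraries (unadjusted p = 0.01401). Fasn, fatty acid synthase, was at 1886, 8033 and 13716 CPM in LD0/24 libraries, against 5244, 12863 and 23068 CPM in LD24/0 libraries. Acly, which makes cytosolic acetyl-CoA from citrate, was at 125.5, 974 and 1615 CPM in LD0/24 libraries, against 704, 3521 and 4536 CPM in LD24/0 libraries. Fasn and Acly overlapped between the groups, with replicate 1 lowest in each group. Without LD0/24 replicate 3 the count of 1 was 5 (median -1.14 in place of -0.36), and without LD0/24 replicate 1 it was 0 (median 0.01). It was 0 without LD24/0 replicate 3, and the median was 0.12 with total counts as a covariate.

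Of 22 cholesterol synthesis genes 2 were lower and 0 higher at an unadjusted p under 0.05, beside 6.27% and 4.69% of all genes. They were Hmgcs1, which opens the pathway (-1.08 ± 0.37), and Srebf2, its master factor (-0.70 ± 0.24, or 0.07 with total counts as a covariate). Srebf2 was at 22.5, 24.4 and 19.4 CPM in LD0/24 libraries, against 30.3, 37.4 and 40.1 CPM in LD24/0 libraries, without overlap. Hmgcs1 was at 61.5, 109 and 155 CPM in LD0/24 libraries, against 373, 184 and 129 CPM in LD24/0 libraries, where the groups overlapped. The count was 7 without LD0/24 replicate 3, and the list's median, -0.28, was -0.95 without that library, 0.17 without LD0/24 replicate 1 and 0.05 with total counts as a covariate.

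Fat hormones overlapped between the groups. Adipoq, adiponectin, was at 2143, 3220 and 3348 CPM in LD0/24 libraries, against 3310, 3535 and 3580 CPM in LD24/0 libraries. Lep, leptin, was at 159, 756 and 447 CPM in LD0/24 libraries, against 1017, 597 and 23.6 CPM in LD24/0 libraries. Leptin thus varied widely within LD24/0. Of 13 adipokine genes 1 was lower and 0 higher at an unadjusted p under 0.05, beside 6.27% and 4.69% of all genes. It was Agt, angiotensinogen, at 105, 64.85 and 52.9 CPM in LD0/24 libraries, against 47.25, 152 and 518.5 CPM in LD24/0 libraries (-1.69 ± 0.64), with LD24/0 replicate 3 far above the rest. None of the 13 adipocyte transcription factors reached that p (median log2 fold change -0.03). Pparg, the main factor of fat cell identity, was at 289, 244 and 222 CPM in LD0/24 libraries, against 310.1, 268 and 237 CPM in LD24/0 libraries.

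Among the thermogenic genes, Ucp1 was high in 1 library alone. Ucp1, the uncoupling protein of beige and brown fat, was at 0, 0 and 1.795 CPM in LD0/24 libraries, against 102, 0.540 and 0.104 CPM in LD24/0 libraries. Cidea, a droplet protein of thermogenic fat, was at 1.84, 0.426 and 24.8 CPM in LD0/24 libraries, against 80.4, 9.57 and 47.3 CPM in LD24/0 libraries. LD24/0 replicate 1 was highest in both, and it was the highest of the 6 for 9 of the 19 thermogenic genes tested. Cpt1b, the muscle and brown fat form of the enzyme that admits fatty acids to mitochondria, was at 0, 0 and 0 CPM in LD0/24 libraries, against 14.6, 4.25 and 0.6905 CPM in LD24/0 libraries, the 1 gene of this list at an unadjusted p under 0.05. Thus 1 of 19 was lower and 0 higher at that p, beside 6.27% and 4.69% of all genes. The median log2 fold change was -1.01, and -0.31 without LD24/0 replicate 1. Without LD0/24 replicate 3 the count lower was 4, and with another quasi-likelihood version it was 6. Every LD0/24 library lay below every LD24/0 library in 3 of the 19, beside 10.2% of all genes, and above in 0, beside 7.82%.

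**Figure D3:**
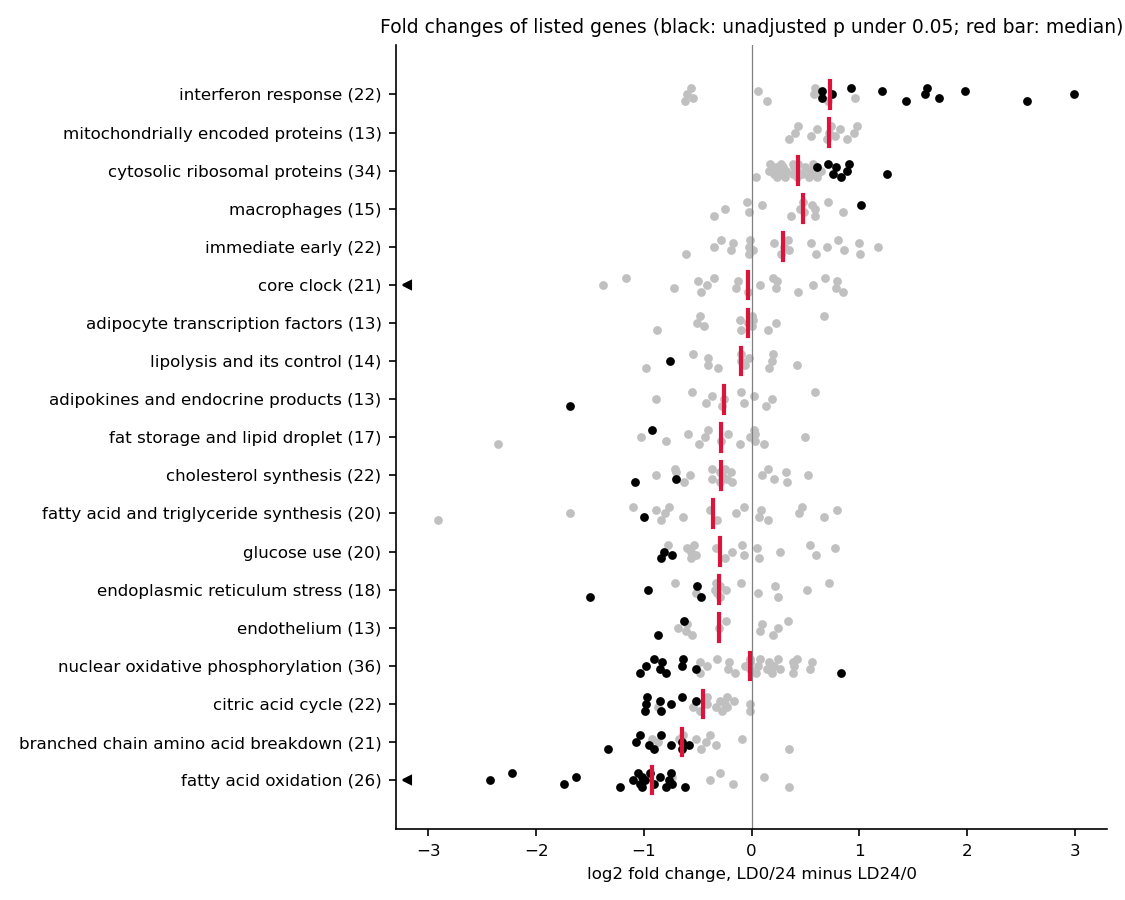
Log2 fold change (LD0/24 minus LD24/0) of each tested gene of 19 lists, with the number of genes in brackets, black points for an unadjusted p under 0.05, red bars for list medians and arrowheads for values below -3.2. Black points lie above 0 for interferon and ribosomal protein genes and mostly below 0 for the metabolic lists, and no point has an adjusted p under 0.05.

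Ribosomal protein genes, which encode the protein part of cytosolic ribosomes, had log2 fold changes above 0 in 34 of 34 (median 0.43), and the median was -0.16 with total counts as a covariate. At an unadjusted p under 0.05, 8 were higher and 0 lower, beside 4.69% and 6.27% of all genes. Rpl38 was at 297, 183 and 297 CPM in LD0/24 libraries, against 108, 140.2 and 75.1 CPM in LD24/0 libraries (1.26 ± 0.39). Rps15 was at 777, 573 and 990.2 CPM in LD0/24 libraries, against 390.2, 462 and 403 CPM in LD24/0 libraries (0.90 ± 0.37). Neither overlapped between the groups, and both turned sign with that covariate. Without overlap, 13 of the 34 genes lay higher and 0 lower, beside 7.82% and 10.2% of all genes. The count of 8 rested on single libraries: it was 2 without LD0/24 replicate 1, LD0/24 replicate 3 or LD24/0 replicate 1, 5 without LD24/0 replicate 2, 1 without LD24/0 replicate 3 and 13 without LD16/8 replicate 3.

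Of 18 genes of protein folding and stress in the endoplasmic reticulum, 4 were lower at an unadjusted p under 0.05 and 0 higher, beside 6.27% and 4.69% of all genes (median -0.30). The count was 2 without LD0/24 replicate 1, 1 without LD0/24 replicate 3, 1 without LD24/0 replicate 3 and 0 with total counts as a covariate. Dnajb9, a chaperone partner of BiP, was at 34.5, 16.9 and 7.67 CPM in LD0/24 libraries, against 45.7, 41.4 and 80.7 CPM in LD24/0 libraries (-1.50 ± 0.50), without overlap. The others were Sel1l, part of the machinery that removes misfolded proteins (-0.47 ± 0.19), Asns, asparagine synthetase (-0.96 ± 0.40), and Pdia6, a disulfide isomerase (-0.51 ± 0.23), of which Sel1l and Asns turned sign with total counts as a covariate. Without overlap, 5 of the 18 genes lay lower and 1 higher, beside 10.2% and 7.82% of all genes. Of 15 heat shock genes 1 was lower and 0 higher at an unadjusted p under 0.05, beside 6.27% and 4.69% of all genes. It was Hspd1, the mitochondrial chaperonin, at 306, 213 and 224 CPM in LD0/24 libraries, against 368, 426 and 450.1 CPM in LD24/0 libraries (-0.75 ± 0.25).

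Of 20 genes of glucose use 3 were lower at an unadjusted p under 0.05 and 0 higher, beside 6.27% and 4.69% of all genes. The count lower was 1 without LD0/24 replicate 1 (with 2 higher), 5 without LD0/24 replicate 3 and 1 without LD24/0 replicate 3. With total counts as a covariate it was 1, with 1 higher, and the list's median was 0.26 in place of -0.29. Ldha, lactate dehydrogenase, was at 685, 1011 and 1159 CPM in LD0/24 libraries, against 1293, 1760 and 1720 CPM in LD24/0 libraries (-0.74 ± 0.29). Pgk1, a glycolytic kinase, was at 137, 121 and 115 CPM in LD0/24 libraries, against 193.5, 227 and 248.5 CPM in LD24/0 libraries (-0.84 ± 0.29, or 0.16 with total counts as a covariate). The third was Pdk1, which restrains pyruvate oxidation (-0.81 ± 0.33). Ldha and Pgk1 did not overlap between the groups, and Pdk1 did.

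Clock genes did not separate constant darkness from constant light. In all 21 tested the groups overlapped. At an unadjusted p under 0.05, 1 was lower and 0 higher, beside 6.27% and 4.69% of all genes. It was Rorb, a nuclear receptor near 0 in every library, at 0, 0 and 0 CPM in LD0/24 libraries, against 0.137, 0 and 0.0777 CPM in LD24/0 libraries. Arntl, which encodes the activator BMAL1, was at 2.04, 1.295 and 11.05 CPM in LD0/24 libraries, against 1.20, 8.91 and 22.3 CPM in LD24/0 libraries. Dbp, a factor that BMAL1 and CLOCK switch on, was at 204, 122 and 5.09 CPM in LD0/24 libraries, against 139.6, 45.7 and 6.03 CPM in LD24/0 libraries. Both groups held libraries with high Dbp and a library with low Dbp.

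The repressors were scattered too. Nr1d1, which encodes REV-ERB alpha, a repressor of Arntl, was at 127, 32.01 and 16.4 CPM in LD0/24 libraries, against 71.3, 112 and 9.33 CPM in LD24/0 libraries. Per2, a repressor of CLOCK and BMAL1, was at 20.6, 68.1 and 4.62 CPM in LD0/24 libraries, against 34.05, 5.54 and 18.8 CPM in LD24/0 libraries. Cry1, its partner, was at 12.6, 17.4 and 15.1 CPM in LD0/24 libraries, against 11.4, 8.13 and 40.4 CPM in LD24/0 libraries. The order of the libraries differed from gene to gene. Over all 15 libraries, the SD of log2 CPM within groups was 2.50 for Dbp (percentile 98.7 of all genes) and 2.90 for Npas2, a relative of CLOCK (percentile 99.5). It was 0.33 for Clock (percentile 20.7). The hours at which tissue was taken are not given in the sources used here.

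Other clock genes gave ranges that overlapped. Tef, a relative of Dbp, was at 57.5 to 253 CPM in LD0/24 libraries and 90.15 to 294 CPM in LD24/0 libraries. Nr1d2, the second REV-ERB gene, was at 8.89 to 145.5 CPM in LD0/24 libraries and 20.96 to 122 CPM in LD24/0 libraries. Per3 was at 7.86 to 82.1 CPM in LD0/24 libraries and 18 to 90.1 CPM in LD24/0 libraries. These 3 genes were lowest in LD0/24 replicate 3. Per1 was at 36.1 to 90.8 CPM in LD0/24 libraries and 27.8 to 51.9 CPM in LD24/0 libraries, Cry2 at 40.7 to 49.55 CPM in LD0/24 libraries and 39.8 to 52.5 CPM in LD24/0 libraries, and Clock at 40.3 to 48.55 CPM in LD0/24 libraries and 40.8 to 80.3 CPM in LD24/0 libraries. Rora, an activator of Arntl, was at 29.03 to 49.15 CPM in LD0/24 libraries and 32.5 to 61.6 CPM in LD24/0 libraries, and Npas2 at 0 to 8.47 CPM in LD0/24 libraries and 0.5495 to 15.6 CPM in LD24/0 libraries. Bhlhe40, Bhlhe41, Ciart, Hlf, Nfil3 and Usp2 had unadjusted p-values of 0.1532 to 0.8951.

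**Figure D4:**
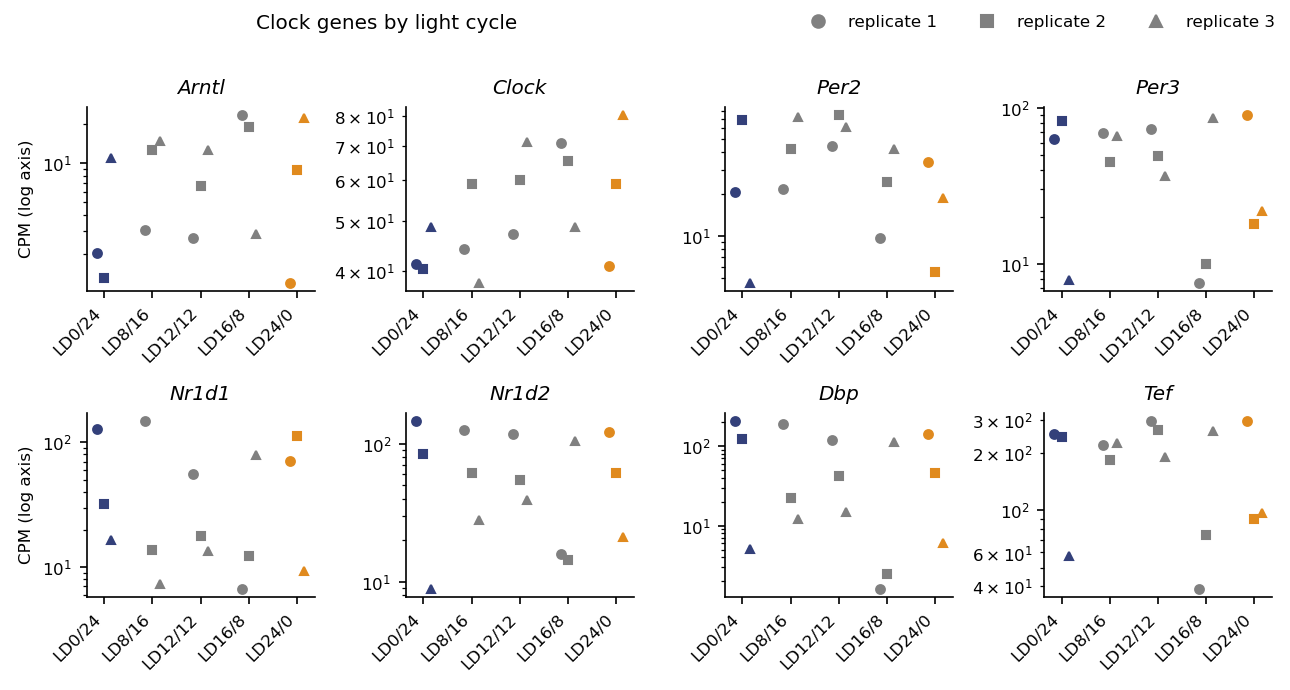
Levels of 8 clock genes (CPM, log axes) in each of 15 inguinal fat libraries by light cycle, with LD0/24 in blue, LD24/0 in orange and symbols for replicate number. Libraries of 1 group spread widely, as for Dbp at 5.09 to 204.2 CPM in LD0/24 and 6.03 to 139.6 CPM in LD24/0.

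Of the markers of other cell types, those of skeletal muscle had the most members lower at LD0/24. Of 22 muscle genes tested, 16 were lower and 0 higher at an unadjusted p under 0.05, beside 6.27% and 4.69% of all genes (median log2 fold change -4.33). Every LD0/24 library lay below every LD24/0 library in 2 of the 22, beside 10.2% of all genes. LD24/0 replicate 2 was the highest of the 6 libraries for all 22. Without it the count of 16 was 3 and the median was -1.18. Myh1, a fast muscle myosin, was at 1.31, 0.2045 and 0.653 CPM in LD0/24 libraries, against 0.751, 56.05 and 12.7 CPM in LD24/0 libraries. Mb, myoglobin, was at 0.480, 1.94 and 0.294 CPM in LD0/24 libraries, against 1.97, 14.75 and 4.77 CPM in LD24/0 libraries. Myh1 overlapped between the groups and Mb did not, and LD24/0 replicate 3 was next highest for both.

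Of 13 endothelial genes, 2 were lower at an unadjusted p under 0.05 and 0 higher, beside 6.27% and 4.69% of all genes. The count was 1 without LD0/24 replicate 3, 1 without LD24/0 replicate 3, 4 without LD16/8 replicate 1 and 0 with total counts as a covariate. Vwf, the clotting factor of vessel walls, was at 29.03, 21.7 and 17.02 CPM in LD0/24 libraries, against 37.8, 40.6 and 44.9 CPM in LD24/0 libraries (-0.87 ± 0.25). Tek, the angiopoietin receptor, was at 43.15, 41.5 and 37.25 CPM in LD0/24 libraries, against 61.9, 56.6 and 70.6 CPM in LD24/0 libraries (-0.63 ± 0.26). Neither overlapped between the groups. Without overlap, 5 of the 13 genes lay lower and 0 higher, beside 10.2% and 7.82% of all genes. The 13 genes together summed to 1504 to 2348 nuclear CPM in LD0/24 libraries and 2072 to 2421 nuclear CPM in LD24/0 libraries. Smooth muscle genes marked LD0/24 replicate 1, the highest of the 6 libraries for 7 of 10, and the 10 genes summed to 922.6 to 6361 nuclear CPM in LD0/24 libraries and 835.4 to 1350 nuclear CPM in LD24/0 libraries. Tagln, transgelin, was at 1318, 33.5 and 139 CPM in LD0/24 libraries, against 132, 57.96 and 152 CPM in LD24/0 libraries. Of the 10 genes, 1 was lower and 0 higher at an unadjusted p under 0.05, beside 6.27% and 4.69% of all genes. It was Notch3, a receptor of mural cells (-0.85 ± 0.35). Of 23 matrix genes, 1 was higher and 1 lower at that p, beside 4.69% and 6.27% of all genes. The higher was Tnxb, a tenascin (0.72 ± 0.33), and the lower Col4a1 of the basement membrane (-0.90 ± 0.41, or 0.60 with total counts as a covariate).

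Of 39 lists, 11 had no gene at an unadjusted p under 0.05. They were those of mitochondrially encoded proteins, adipocytes, liver cells, red blood cells, glucocorticoid response, mammary and duct epithelium, immediate early genes, cell cycle, B cells and lymph node, milk proteins, and adipocyte transcription factors. The milk protein genes had log2 fold changes above 0 in 9 of 10 (median 2.58, and 1.28 without LD0/24 replicate 1). Of them, 3 of 9 were higher at that p with the 6 libraries alone, and 6 of 10 without LD16/8 replicate 1 and LD24/0 replicate 2.

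The genes with the highest and lowest fold changes were picked from 299 nuclear genes that had an unadjusted p under 0.01, a mean of at least 5 CPM and no overlap between the groups (93 higher and 206 lower). Since these values chose them, they are a description. Optc, opticin, a small proteoglycan of the matrix, was at 19.1, 6.66 and 7.24 CPM in LD0/24 libraries, against 2.30, 2.78 and 2.01 CPM in LD24/0 libraries (2.22 ± 0.44). Ppp1r14a, an inhibitor of myosin phosphatase in smooth muscle, was at 46.2, 11.6 and 13.8 CPM in LD0/24 libraries, against 6.28, 3.62 and 6.22 CPM in LD24/0 libraries (2.15 ± 0.56). Both were highest in LD0/24 replicate 1, the library rich in smooth muscle genes. Meg3, an imprinted noncoding RNA, was at 38.5, 42.4 and 51.5 CPM in LD0/24 libraries, against 14.85, 12.6 and 7.55 CPM in LD24/0 libraries (1.92 ± 0.55), close together within darkness. The rest of the 10 highest were Ifit1, Spa17, a sperm protein (1.98 ± 0.56), Zscan30, a zinc finger protein (1.90 ± 0.62), and Gm46277 (2.64 ± 0.86), Gm8292 (2.60 ± 0.75), Gm27177 (1.93 ± 0.55) and LOC100861749 (1.88 ± 0.59), whose roles are not given here.

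Among the 10 lowest was Retsat, a retinol saturase of adipocytes, at 18.8, 24.8 and 26.6 CPM in LD0/24 libraries, against 79.35, 60.3 and 119 CPM in LD24/0 libraries (-1.88 ± 0.38, adjusted p = 0.2701 with edgeR and 0.001209 with DESeq2). Aldh3b2, an aldehyde dehydrogenase, was at 8.54, 8.215 and 9.17 CPM in LD0/24 libraries, against 29.5, 21.75 and 113 CPM in LD24/0 libraries (-2.66 ± 0.56). Plin5, which tethers lipid droplets to mitochondria, was at 0.9005, 1.69 and 4.405 CPM in LD0/24 libraries, against 23.4, 6.09 and 8.16 CPM in LD24/0 libraries (-2.43 ± 0.68). LD24/0 replicate 3 was highest for Retsat and Aldh3b2, and LD24/0 replicate 1 for Plin5.

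Ehhadh, a peroxisomal enzyme of fatty acid oxidation, was at 24.45, 17.04 and 15.7 CPM in LD0/24 libraries, against 36.5, 58.7 and 171 CPM in LD24/0 libraries (-2.22 ± 0.67). Ces1f, a carboxylesterase, was at 114, 66.8 and 49.3 CPM in LD0/24 libraries, against 272.5, 170.2 and 597.5 CPM in LD24/0 libraries (-2.18 ± 0.62). Cnr1, the cannabinoid receptor, was at 1.91, 2.93 and 1.94 CPM in LD0/24 libraries, against 4.03, 15.8 and 5.16 CPM in LD24/0 libraries (-1.88 ± 0.59). Ehhadh and Ces1f were highest in LD24/0 replicate 3, and Cnr1 in LD24/0 replicate 2. Tnni2, troponin of fast muscle (-6.59 ± 1.99), and Srl, a calcium-binding protein of the sarcoplasmic reticulum (-1.92 ± 0.51), were highest in LD24/0 replicate 2, the library rich in muscle genes. The remaining genes were H1f2, a linker histone (-2.06 ± 0.55), and the predicted gene Gm5182 (-2.37 ± 0.66). With total counts as a covariate the log2 fold change turned to 0.71 for Ehhadh, 0.64 for Gm5182, -1.43 for Gm46277 and -1.06 for LOC100861749.

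**Figure D5:**
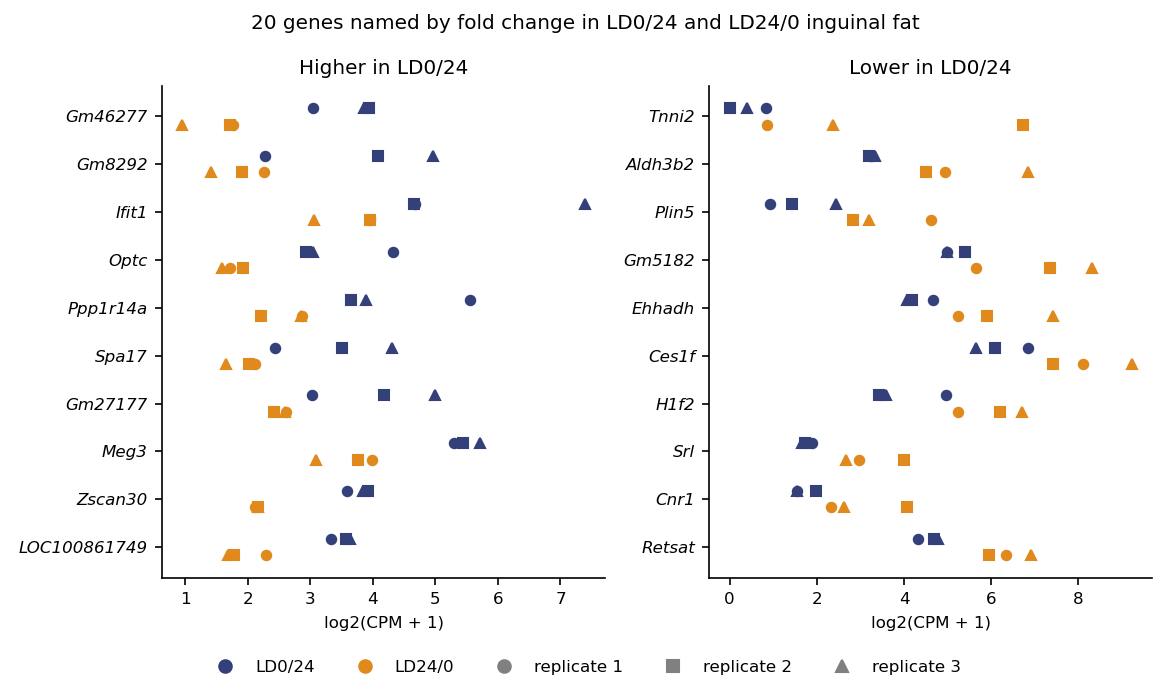
Level of the 20 named genes, as log2(CPM + 1), in each LD0/24 (blue, upper row of a gene) and LD24/0 (orange, lower row) library, with symbols for replicate number. The genes were chosen for groups that do not overlap, as for Meg3 at 38.5 to 51.5 CPM in LD0/24 and 7.55 to 14.9 CPM in LD24/0.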

How the data were processed

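Inguinal fat RNA was sequenced in 15 libraries. The labels' protocols name TRIzol for extraction and a SMARTER kit for library construction. Tools listed in the submitters' processing notes are StringTie 2.2.1, HISAT2 2.1.0 and SAMtools 1.10, with genome build GRCm39. The sources used here do not give tool settings, strandedness, batches or sampling hours. Reads of antisense overlaps cannot be separated. The deposited values were read as estimated counts (expected counts), as StringTie gives, and are whole numbers, so rounding altered none. Of 46333 features, 2 named no gene and were left out (at most 0.0228% of a library), and 0 columns matched no library. Values of 4 were in surplus in inguinal fat (7907, against 4780 of 3 and 4124 of 5), so the test was repeated on values divided by 4.

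All 15 libraries were fitted with edgeR 4.0.16 in R 4.3.3, with 1 mean per cycle, a robust quasi-likelihood fit after filterByExpr and TMM scaling, and LD0/24 minus LD24/0 was tested two-sided with Benjamini-Hochberg adjustment over all genes at 0.05. CPM is relative to the TMM-scaled library size, and the SE of a log2 fold change is its size divided by the square root of F. Summed marker levels use counts outside the 37 mitochondrial genes, without scaling. Library measures were compared with an exact permutation test. DESeq2 1.42.0 and limma 3.58.1 (voom) were alternatives, as were other scalings and filters, covariates, thinning and leaving out each library. Scripts were tested on simulated data, and no 2 of the libraries held identical values.

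The members and gene lists were chosen with earlier results of these data known. Genes were named by rule: any past the threshold, the 10 highest and 10 lowest fold changes of the 299 genes described above, up to 4 genes of a list with the smallest p, all clock genes, and Acta1, Ckm, Csn2, Krt18, Ucp1, Adipoq and Lep. Some genes that the rule names are not reported here. Any others were chosen after their values were seen. Promoter sequences are from RefSeq on GRCm38.p6, another build than that of the counts, and are used for their letters only.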

Additional observations from a re-analysis of the deposited data

Results flagged for a closer look

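LD16/8 replicate 1, which lies outside the comparison but enters the shared estimate of spread, held 66.53% of its nuclear counts in the milk protein genes without Xdh. It drew attention as a signal above the LD12/12 libraries, where the highest share was 0.00309%. The highest share among the other 14 inguinal fat libraries was 0.0153%. Without this library the comparison of LD0/24 with LD24/0 had 0 genes with an adjusted p under 0.05 and 2813 at an unadjusted p under 0.05 with edgeR.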

How the results depend on the processing

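The count of 0 genes with an adjusted p under 0.05 became 197 with DESeq2 and ranged from 0 to 5 when single libraries were left out. The 5 genes, all lower at LD0/24, came without LD0/24 replicate 1 (Septin11, Bpnt1, Prpf38a, Slc25a53 and Arfgap2), and 1 gene (Atrip) came without LD8/16 replicate 3. It stayed at 0 with limma-voom, RLE size factors, no filter, the 6 libraries alone, another quasi-likelihood version, mitochondrial or dissection genes left out, the mitochondrial share as a covariate, values divided by 4, and, chosen after seeing the data, total counts as a covariate, thinning to the smallest total, and leaving out the milk-rich and muscle-rich libraries. The number at an unadjusted p under 0.05 was 405 with total counts as a covariate, 1410 with the mitochondrial share and 2261 after thinning.

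Replicate numbers did not pair the libraries: same-numbered libraries of LD0/24 and LD24/0 correlated at -0.04, 0.04 and -0.03 in their deviations from group means, and with a replicate block the count was 0.

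Of 2569 values of single genes under alternatives, 24 changed sign, all with total counts as a covariate, and 39 passed the threshold, all with DESeq2. Many of these genes were named for a small p in the same data, so the small number is no measure of robustness. Over all genes the sign was kept in 54.2% with total counts as a covariate and 82.9% with the mitochondrial share. When 1 library was left out, it was kept in 85.5 to 99.9%. The log2 fold changes that changed sign were -1.43 for Gm46277, -1.06 for LOC100861749, 0.64 for Gm5182, 0.71 for Ehhadh, 0.01 for Atp5a1, 0.41 for Atp5b, 0.52 for Ndufs1, 0.31 for Sdha, 0.08 for Cyc1, 0.39 for Uqcrc1, -0.05 for Rpl38 and -0.58 for Rps15. The others were 0.22 for Etfdh, 0.05 for Hsd17b4, 0.62 for Pcca, 0.09 for Dld, 0.42 for Suclg1, 0.03 for Sel1l, 0.35 for Asns, 0.07 for Srebf2, 0.16 for Pgk1, 0.09 for Irs1, 0.74 for Fitm2 and 0.60 for Col4a1. Totals of LD0/24 and LD24/0 do not overlap, so that fit cannot separate depth from light cycle, and its signs decide nothing on either. The cause was not tested.

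Over 29 alternatives, the genes of a list at an unadjusted p under 0.05 numbered 4 to 13 for interferon (12 as reported), 0 to 9 for nuclear oxidative phosphorylation (9), 0 to 13 for ribosomal proteins (8), 0 to 21 for fatty acid oxidation (20), 0 to 16 for branched chain amino acid breakdown (10) and 0 to 10 for the citric acid cycle (8), and over 28 for skeletal muscle 3 to 19 (16). Precision is limited by the 3 libraries of each group, with totals of 63.5 to 71.7 M counts at LD0/24 and 104.6 to 112.5 M counts at LD24/0.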

Other observations

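Fatty acid oxidation genes, a list added after values were seen and so without a test, were lower at LD0/24 in more of their members than any list described above. Mitochondria and peroxisomes shorten fatty acids by this pathway. Of 26 genes, 20 had an unadjusted p under 0.05 and lower values at LD0/24, and 0 were higher, beside 6.27% and 4.69% of all genes (median log2 fold change -0.92, beside 0.01). Hadha, the alpha subunit of the mitochondrial trifunctional protein, was at 152, 78.8 and 94.96 CPM in LD0/24 libraries, against 303, 275 and 429.7 CPM in LD24/0 libraries (-1.63 ± 0.35, adjusted p = 0.2701 with edgeR and 0.00168 with DESeq2). Etfdh, which passes electrons from fat oxidation to the respiratory chain, was at 37.5, 32.7 and 22.8 CPM in LD0/24 libraries, against 92.01, 80.1 and 138 CPM in LD24/0 libraries (-1.74 ± 0.39). Neither overlapped between the groups. Acadm, a medium-chain dehydrogenase, had a log2 fold change of -1.05 ± 0.32 and Acadvl, a very-long-chain one, -0.77 ± 0.27. Cpt1a, the liver form of the entry enzyme, was at 50.3, 33.2 and 17.6 CPM in LD0/24 libraries, against 30.2, 25.7 and 23.4 CPM in LD24/0 libraries. Of the 20, 18 did not overlap, beside 10.2% of all genes, and in 19 the LD12/12 mean lay between the LD0/24 and LD24/0 means. The LD12/12 library totals lay between those of LD0/24 and LD24/0 as well. The count was 13 with the mitochondrial share as a covariate, 13 without LD0/24 replicate 2 and 0 with total counts as a covariate (median -0.14), a fit that turned the sign of Etfdh, Hsd17b4 and Ehhadh.

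Breakdown of branched chain amino acids and the citric acid cycle, added in the same way, also held lower values. Of 21 branched chain genes, 10 were lower at an unadjusted p under 0.05 and 0 higher, beside 6.27% and 4.69% of all genes (median -0.65). All 10 were highest in LD24/0 replicate 3. Mccc2, a carboxylase of leucine breakdown, was at 56.3, 45.3 and 39.9 CPM in LD0/24 libraries, against 97.9, 93.9 and 106 CPM in LD24/0 libraries (-1.07 ± 0.23), and Pccb, a propionyl-CoA carboxylase subunit, had a log2 fold change of -1.04 ± 0.26. Of 22 citric acid cycle genes, 8 were lower at that p and 0 higher, beside the same shares of all genes. All 22 had a log2 fold change below 0 (median -0.45). Suclg1, a succinyl-CoA ligase subunit, was at 49.7, 50.9 and 49.6 CPM in LD0/24 libraries, against 88.4, 103.5 and 106 CPM in LD24/0 libraries (-0.99 ± 0.27), without overlap, and its log2 fold change was 0.42 with total counts as a covariate. With total counts as a covariate both counts were 0, and the medians turned to 0.04 for branched chain genes and 0.23 for the citric acid cycle. Without LD24/0 replicate 3 the counts were 6 and 5, and without LD0/24 replicate 2 that of the citric acid cycle was 5.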
